A study of Homo sapiens with 28 samples.

Results

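This report describes 37 interferon-stimulated genes in 16 RNA-Seq libraries of the prostate cancer lines PC3 and LNCaP. The genes were listed by symbol, under a rule that sets no limit on a measured value, and all 37 are among the 19662 gene symbols of both expression tables. They comprise 17 antiviral effectors, 5 genes of the ISG15 system, 4 transcription factors, 2 RNA sensors and 9 other interferon-stimulated genes.

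PC3 is a prostate cancer line with neuroendocrine traits, and LNCaP is a prostate adenocarcinoma line. PC3 cells were transfected with a control siRNA (siCtrl) or with an siRNA against ONECUT2 (siOC2), a homeobox transcription factor studied as a driver of neuroendocrine prostate cancer. LNCaP cells carried an empty vector (EV) or a vector for Flag-tagged ONECUT2 (OC2). Both lines were kept in normoxia or in hypoxia at 0.2% oxygen, with 2 libraries for each of the 8 groups. Every PC3 library, siCtrl included, was exposed to siRNA and transfection reagent, and every LNCaP library, EV included, to a vector. No RNA-Seq library is of untreated cells. The siOC2 libraries of a group hold different reagents, siRNA1 in replicate 1 and siRNA2 in replicate 2. No source used here says that replicates came from separate cultures, so p-values measure the spread between these libraries, which may be technical. In bulk RNA, fewer cells with a transcript and less transcript per cell cannot be told apart.

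Interferons are secreted proteins that cells make after sensing foreign or misplaced nucleic acid. Type I and type III interferons bind their receptors, which activate Janus kinases, and STAT2 and IRF9 then take part in the ISGF3 complex. ISGF3 binds the interferon-stimulated response element (ISRE) in promoters, and the induced genes bind viral RNA, degrade it, block entry, or feed back on the pathway. Tumour cells can keep part of this programme active without infection, and transfected RNA can induce it.

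Levels are given as RPKM, read numbers corrected for library size and for the length of each gene, which allow levels of genes of different length to be compared. Differences were tested with limma on log2(RPKM + 0.1). Genes entered the test of a line when 2 or more of its 8 libraries held 1 RPKM or more. This filter kept 31 of the 37 genes in PC3 (of 12214 genes in all) and 36 in LNCaP (of 12283). A gene was called, and is said to have risen or fallen, when its fold exceeded 2 with an unadjusted P below 0.05. The adjusted p was computed by the Benjamini-Hochberg method across the tested genes of the line, and shares given at an adjusted p under 0.05 are of genes that also exceeded 2-fold.

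The labels could be checked in part. ONECUT2 RNA was 1.77 and 1.16 RPKM in siCtrl normoxia against 0.276 and 0.204 in siOC2, and 0.648 and 0.55 in siCtrl hypoxia against 0.125 and 0.214 in siOC2. The table carries no ONECUT2 value in the LNCaP OC2 libraries. In the LNCaP EV libraries ONECUT2 was 2.89 and 7.86 RPKM in normoxia and 11.5 and 3.09 in hypoxia, a wide spread within each group. The summed RPKM of 10 hypoxia marker genes was 148 to 633 in the PC3 normoxia libraries and 2186 to 4594 in hypoxia, and in LNCaP 375 to 484 against 2110 to 2470. The 6 lineage genes of PC3 summed to 417 to 1386 RPKM in PC3 and 24.3 to 59.1 in LNCaP. Relative depth, estimated from the values of genes with few reads, ran from 0.303 to 1 in PC3 and from 0.548 to 1 in LNCaP. The shallow PC3 libraries were siOC2 hypoxia replicate 1 at 0.303, siCtrl hypoxia replicate 2 at 0.333 and siCtrl normoxia replicate 1 at 0.365.

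The interferon-stimulated genes were detected in both lines. The tables of the lines were normalised separately, so levels are compared within a line only. The 31 genes tested in PC3 summed to between 211 and 400 RPKM per library, and the 36 tested in LNCaP to between 421 and 727 RPKM. The highest mean levels in PC3 were those of UBE2L6 (43.6 RPKM), the ISG15-conjugating enzyme, ISG15 itself (30.5), IRF9 (29.3), the exonuclease ISG20 (23.6) and STAT2 (23.1). In LNCaP they were those of IFITM3 (109 RPKM), a membrane protein that blocks virus entry, IFI6 (80.4), ISG15 (45.04), STAT2 (43.1) and IFIT1 (36.5), which binds foreign RNA caps.

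Genes that stayed under 1 RPKM in every PC3 library were RSAD2, BST2, TRIM22, IFIH1, XAF1 and EPSTI1. BST2, which tethers budding virions, was listed at 0 in 6 of these 8 libraries and reached 0.255 RPKM at most. RSAD2, the antiviral enzyme viperin, reached 0.374 RPKM. In LNCaP no gene was under 1 RPKM throughout. EPSTI1, which was not tested there, reached 1.12 RPKM in 1 library and was 0.0369 in the lowest.

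**Figure D1:**
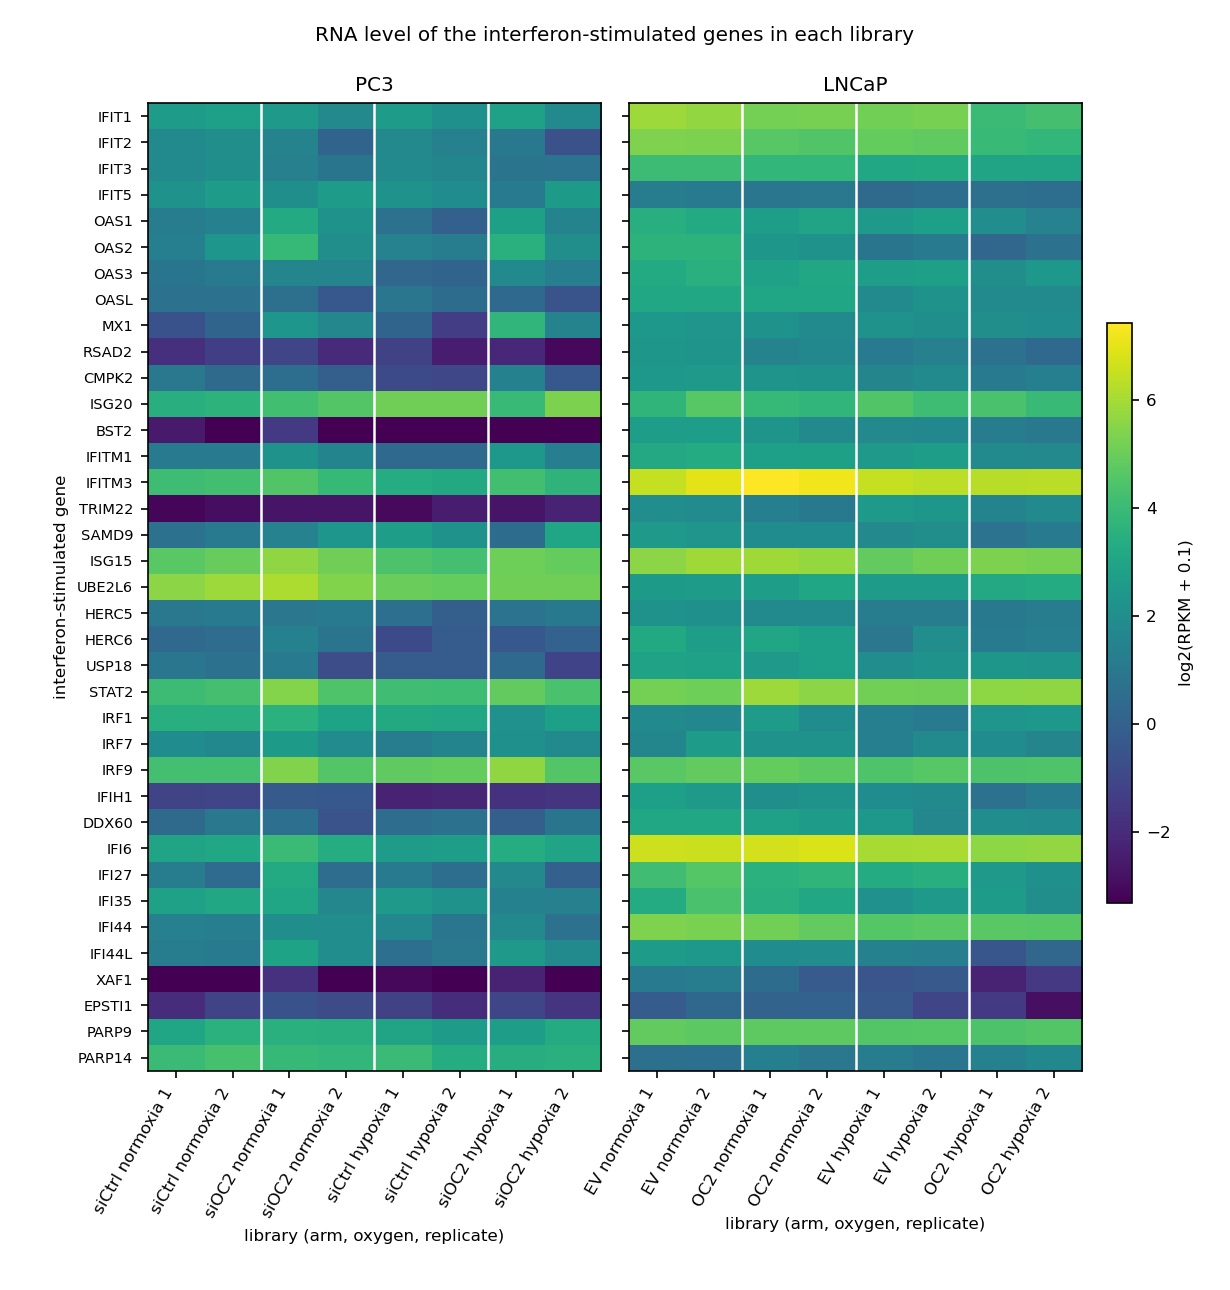
Level of each interferon-stimulated gene (rows) in each library (columns) as log2(RPKM + 0.1), with PC3 on the left and LNCaP on the right, and white lines between groups of 2 libraries. In 17 of the 36 genes tested in LNCaP the EV normoxia columns are the brightest and the OC2 hypoxia columns the darkest, OAS2 going from 12.4 and 12.3 RPKM to 1.06 and 1.56, while in PC3 the siOC2 replicate 1 columns are brighter for OAS1, OAS2 and MX1.

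Many of the genes share a promoter motif. A window of 300 bases, 250 before to 50 after the transcription start, was given by RefSeq (GRCh38.p14) for 31 of the 37 genes, the others being IFIT2, OAS2, OASL, TRIM22, USP18 and IRF7. The core of the ISRE, TTTCNNTTTC read on either strand (GAAANNGAAA on the other), was in 20 of these 31 windows (64.5%), against 3.26% of the 14112 windows of all genes in the tables. Among the 22 genes with a window that were called in any comparison, 14 held the core (63.6%), and 6 of the 9 others did (66.7%). The windows of the 4 called genes with a core and the greatest differences are printed here, 5′ to 3′ on the strand of the gene, with the core in capitals, to show the motif in genes that were called. MX1 and SAMD9 were called in PC3 only. No match in a window says only that these letters are not there, and OAS1, XAF1 and HERC6, also called, had none. Matches may overlap, as in BST2 and ISG15.
MX1: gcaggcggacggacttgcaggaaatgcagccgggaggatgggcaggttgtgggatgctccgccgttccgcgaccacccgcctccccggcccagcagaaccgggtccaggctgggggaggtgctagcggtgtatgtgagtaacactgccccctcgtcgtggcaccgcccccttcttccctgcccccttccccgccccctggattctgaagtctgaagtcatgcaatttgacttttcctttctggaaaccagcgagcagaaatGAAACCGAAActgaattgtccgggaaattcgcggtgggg
IFI27: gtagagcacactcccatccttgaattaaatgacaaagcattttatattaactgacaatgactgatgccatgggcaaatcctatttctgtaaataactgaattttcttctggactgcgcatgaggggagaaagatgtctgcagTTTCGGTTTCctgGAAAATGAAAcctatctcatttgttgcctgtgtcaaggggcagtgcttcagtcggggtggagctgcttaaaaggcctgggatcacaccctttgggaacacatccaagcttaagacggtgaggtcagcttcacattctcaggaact
IFI44L: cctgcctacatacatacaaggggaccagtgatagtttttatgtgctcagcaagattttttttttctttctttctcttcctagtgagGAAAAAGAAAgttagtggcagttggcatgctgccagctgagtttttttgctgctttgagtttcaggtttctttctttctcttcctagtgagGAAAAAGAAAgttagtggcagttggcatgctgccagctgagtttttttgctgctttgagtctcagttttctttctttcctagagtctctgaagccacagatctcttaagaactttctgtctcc
SAMD9: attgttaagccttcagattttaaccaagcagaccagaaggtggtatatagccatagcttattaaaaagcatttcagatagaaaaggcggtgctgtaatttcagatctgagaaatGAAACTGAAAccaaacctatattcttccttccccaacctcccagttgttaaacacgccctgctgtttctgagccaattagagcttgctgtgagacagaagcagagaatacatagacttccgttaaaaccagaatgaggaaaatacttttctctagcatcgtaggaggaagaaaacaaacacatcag
The MX1 window is chr21:41420308-41420607 on the plus strand, with the core after the start site. The IFI27 window, chr14:94110486-94110785 on the plus strand, holds 2 cores, 1 in each orientation. IFI44L, chr1:78620198-78620497 on the plus strand, holds 2. The SAMD9 window is chr7:93117930-93118229 on the minus strand and holds 1.

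Several genes lie in clusters or overlap another gene. In GRCh37, IFIT2, IFIT3, IFIT1 and IFIT5 lie on chromosome 10 between 91043451 and 91181362. OAS1, OAS3 and OAS2 lie on chromosome 12 between 113343661 and 113449528. MX1 (chromosome 21, 42791947 to 42841998) shares exonic bases with TMPRSS2 on the other strand, which was 103 to 181 RPKM in LNCaP and 0.275 to 5.59 in PC3. CMPK2 and RSAD2, IFIT2 and IFIT3 with LIPA, and PARP9 with DTX3L also overlap on opposite strands. The libraries were stranded, and the strand setting of the counting was not given in the sources used here, so their values carry that uncertainty, as do those of the close paralogs IFITM1 and IFITM3. TRIM22 shares exonic bases with OR56B1 on the same strand, which no strand setting can separate. These positions and overlaps come from a later GENCODE release than the one the authors counted with. Whether the same exons overlapped in that earlier release was not checked.

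The widest change was with oxygen in LNCaP cells, where interferon-stimulated genes were lower in hypoxia in both arms. Between the EV libraries, 31 of the 36 genes were lower in hypoxia, with a median log2 difference of -0.67 against 0.02 over all genes tested. Between the OC2 libraries 31 were lower as well, with a median of -0.82 against 0.09. The comparisons within EV and within OC2 share no library. Fewer genes passed the fold limit with a pseudocount of 1, which shrinks differences of low genes: 3 in EV and 8 in OC2 cells, all lower.

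In the EV libraries 9 of the 36 genes fell with hypoxia (25%) and none rose, where 2.34% of all genes tested fell and 5.6% rose. All 9 also passed at an adjusted p under 0.05, a limit that 7.58% of all genes passed in either direction. OAS2, which makes the 2-5A messenger that activates RNase L, stood at 12.4 and 12.3 RPKM in EV normoxia and at 1.74 and 2.14 in EV hypoxia. This was a 6.11-fold fall (log2 difference -2.61, SE 0.20, adjusted p = 0.000103). XAF1, a pro-apoptotic interferon target, was 2.03 and 2.25 RPKM in normoxia against 0.608 and 0.694 in hypoxia, 2.98-fold lower (adjusted p = 0.0101). The libraries of these groups did not overlap for either gene. With a pseudocount of 1 XAF1 was not called (log2 difference -0.93).

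The other 7 genes that fell in EV hypoxia came from several roles. HERC6, a HERC-family ubiquitin ligase, was 9.26 and 6.49 RPKM in normoxia and 1.85 and 3.79 in hypoxia (2.85-fold). IFI35 was 9.61 and 20.3 RPKM against 4.24 and 5.61 (2.83-fold), a wide spread in normoxia, and without its EV normoxia replicate 2 the fold was under 2, at a log2 difference of -0.96. IFI44L was 6.15 and 5.23 RPKM against 2.58 and 2.3 (2.28-fold). The falls of OASL (2.15-fold), the RNA sensor DDX60 (2.095-fold), RSAD2 (2.06-fold) and IFI27 (2.02-fold) lay close to the limit of 2. Adjusted p of the 7 ran from 0.00113 for OASL to 0.0127 for IFI35.

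Smaller differences of the same sign were spread over the remaining genes. In EV cells 27 of the 36 genes had an unadjusted P under 0.05, against 44.4% of all genes tested. The 2 EV hypoxia libraries lay below both EV normoxia libraries for 30 of the 36 genes, and for 32.4% of all genes. ISG15, a ubiquitin-like protein, was 48.1 and 60.6 RPKM in EV normoxia and 28.5 and 34.1 in hypoxia, a log2 difference of -0.79 (adjusted p = 0.00462). TRIM22 was among the 5 genes that were higher in hypoxia, at 3.74 and 3.51 RPKM in normoxia and 5.57 and 5.11 in hypoxia (log2 difference 0.54, adjusted p = 0.0461). Neither passed the fold limit.

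In the OC2 libraries 14 of the 36 genes fell with hypoxia (38.9%) and none rose, where 1.36% of all genes tested fell and 5.48% rose. All 14 passed at an adjusted p under 0.05, where 6.41% of all genes did. IFI44L was 3.68 and 3.8 RPKM in OC2 normoxia and 0.636 and 1.07 in OC2 hypoxia, a 4.13-fold fall (log2 difference -2.05, SE 0.23, adjusted p = 0.00091). XAF1 was 1.28 and 0.754 RPKM against 0.113 and 0.243 (4.02-fold, adjusted p = 0.00475). These hypoxia values of XAF1 lie near the 0.1 added before taking logs. With a pseudocount of 1 its log2 difference was -0.77, without a call. OAS2 was 5.02 and 4.42 RPKM against 1.06 and 1.56 (3.46-fold, adjusted p = 0.0009). These 3 genes, with HERC6 (3.30-fold) and IFI27 (2.61-fold), were among the called genes of both arms, as were OASL (2.31-fold) and RSAD2 (2.11-fold).

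Called in OC2 and not in EV cells were IFIH1 (2.29-fold), the cytosolic RNA sensor MDA5, OAS1 (2.22-fold), IFI6 (2.16-fold), IFIT1 (2.07-fold) and IFITM3 (2.04-fold), with CMPK2 and IFITM1 closest to the limit. IFI6, a mitochondrial and endoplasmic reticulum protein, was tight in each group, at 105 and 112 RPKM in OC2 normoxia and 49.0 and 51.2 in OC2 hypoxia. A call in 1 arm and not in the other does not show that the arms differ, so the difference of the differences was tested as an interaction.

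No interferon-stimulated gene was called in that interaction, where 2.34% of all genes tested were called higher, 1.35% lower and 0.244% at an adjusted p under 0.05. The median interaction was -0.05 against 0.06 over all genes. Its greatest values were IFI44L (log2 -0.86, adjusted p = 0.249), OAS2 (0.82, adjusted p = 0.219) and IFITM3 (-0.69, adjusted p = 0.197). By unadjusted P under 0.05, 6 of the 36 genes passed, against 16.9% of all genes, and the lowest adjusted p, that of IFI6, was 0.104. Leaving out EV normoxia replicate 1, OC2 normoxia replicate 1 or either OC2 hypoxia library gave 1 call.

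**Figure D2:**
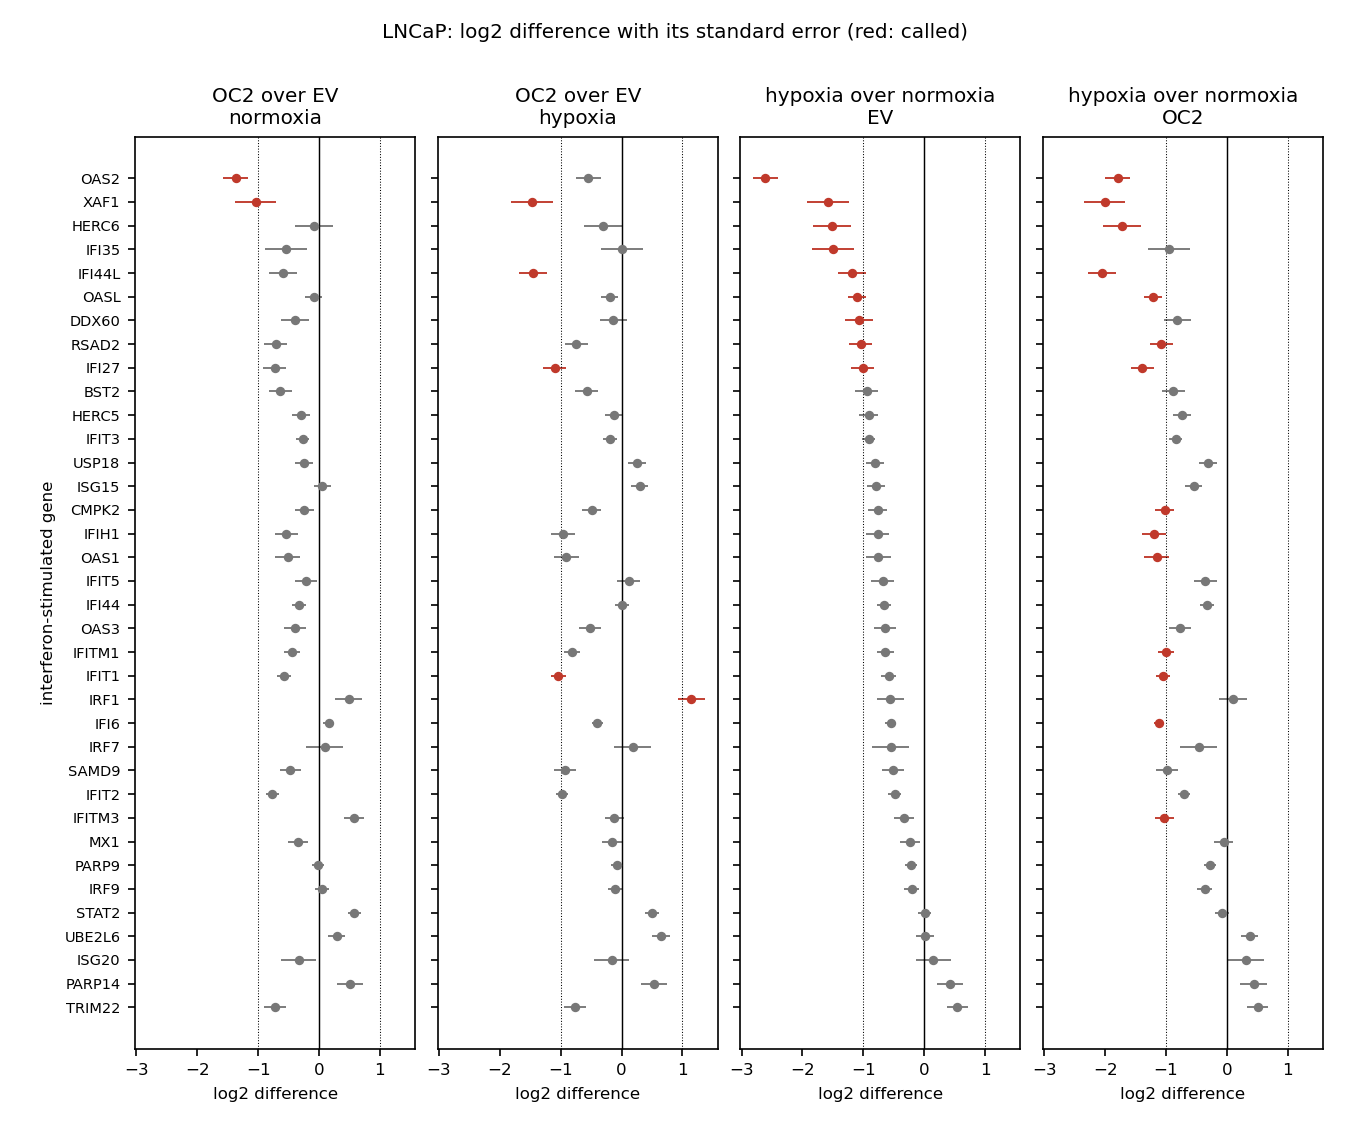
Log2 difference (x axis) of the 36 tested interferon-stimulated genes (rows) in 4 LNCaP comparisons, with bars for the standard error, dotted lines at a 2-fold difference and red for called genes. Points lie left of 0 for 31 of 36 genes in both hypoxia panels, with OAS2 at -2.61 in EV cells, and for 27 and 26 of 36 in the OC2 over EV panels.

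The ONECUT2 vector was also accompanied by lower levels in LNCaP cells, with a smaller shift. In normoxia 27 of the 36 genes were lower in OC2 than in EV libraries (median log2 difference -0.33 against -0.08 over all genes), and in hypoxia 26 were (-0.19 against -0.01). Of all genes tested, 38.6% were higher in OC2 libraries in normoxia and 48.2% in hypoxia. The EV normoxia libraries enter both the OC2 and the hypoxia comparison in normoxia, and OC2 hypoxia likewise, so these comparisons are not independent of each other.

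In normoxia OAS2 and XAF1 fell and none rose (5.56% fell), where 0.48% of all genes tested fell, 2.81% rose and 2.25% passed at an adjusted p under 0.05. OAS2 was 12.4 and 12.3 RPKM in EV and 5.02 and 4.42 in OC2 normoxia, 2.58-fold lower (log2 difference -1.37, SE 0.20, adjusted p = 0.00956). XAF1 was 2.03 and 2.25 RPKM against 1.28 and 0.754, 2.06-fold lower, with an adjusted p of 0.113 and it was not called with a pseudocount of 1, with upper-quartile scaling, or without EV normoxia replicate 2 or OC2 normoxia replicate 2. IFIT2, an RNA-binding antiviral protein, came next, at 41.3 and 39.9 RPKM in EV and 24.7 and 23.1 in OC2 (log2 difference -0.76, SE 0.10, adjusted p = 0.00606), which is under the fold limit.

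In hypoxia 4 genes fell (11.1%) and IRF1 rose (2.78%), where 0.773% of all genes tested fell and 3.7% rose. All 5 passed at an adjusted p under 0.05, where 3.75% of all genes did. IFIT1 was 35.5 and 37.7 RPKM in EV hypoxia and 16.2 and 19.4 in OC2 hypoxia, a 2.06-fold fall (log2 difference -1.04, SE 0.12, adjusted p = 0.00224). IFI27, a mitochondrial protein, was 9.88 and 10.6 RPKM against 5.43 and 4.1 (2.14-fold, adjusted p = 0.0103). The remaining falls were those of XAF1 (2.77-fold, adjusted p = 0.0308) and IFI44L (2.73-fold, adjusted p = 0.00801). With a pseudocount of 1 the count was 1, and XAF1 then had a log2 difference of -0.49, without a call. IFIT1 was not called with upper-quartile scaling. The direction of IRF1, a transcription factor that activates interferon targets, was opposite, with 2.43 and 2.06 RPKM in EV hypoxia and 4.84 and 5.32 in OC2 hypoxia (2.21-fold, adjusted p = 0.017).

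By role, 1 of the 17 antiviral effectors fell with OC2 at each oxygen level, OAS2 in normoxia and IFIT1 in hypoxia. In log2 difference 1 of the 17 was above 0 at each level, where 38.6% and 48.2% of all genes were, and the medians were -0.44 and -0.55. Of the 4 transcription factors, IRF1 in hypoxia was the only one called, and IRF7 (0.10 and 0.19) and IRF9 (0.05 and -0.11) had log2 differences within their standard errors. STAT2 was 36.2 and 33.8 RPKM in EV and 57.8 and 47.6 in OC2 normoxia (log2 difference 0.58, adjusted p = 0.0277), with 35.6 and 34.7 against 49.4 and 50.1 in hypoxia (0.50, adjusted p = 0.0279). OC2 libraries lay below EV libraries at both oxygen levels without overlap for 19 genes and above for IRF1, PARP14, STAT2 and UBE2L6, against 15.5% and 10.4% of all genes.

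For 17 of the 36 genes the EV normoxia libraries were both the highest and the OC2 hypoxia libraries both the lowest of the 8, a pattern of 4.64% of all genes tested. They include IFIT1, IFIT2, IFIT3, OAS1, OAS2, OAS3, OASL, RSAD2, BST2, IFIH1 and XAF1. IFITM3 stood outside it, with 90.8 and 128 RPKM in EV normoxia and 174 and 149 in OC2 normoxia. Its highest values were thus those of OC2 normoxia, and both hypoxia groups lay between 77.5 and 89.9 RPKM.

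Other genes of the pathway, upstream genes and further targets, were read from 4 lists of 93 genes: interferons, receptors and signalling, nucleic acid sensing, and other interferon targets. Of 21 interferon genes 2 passed the filter in LNCaP, and both were highest in EV normoxia. IFNB1 reached 1 RPKM in no other group, so it entered the test only through the group where it was highest. IFNB1, the first type I interferon made after sensing, was 1.07 and 1.06 RPKM in EV and 0.231 and 0.259 in OC2 normoxia, and 0.537 and 0.5 against 0.143 and 0.0411 in hypoxia. It fell with OC2 at both oxygen levels (log2 difference -1.76 and -1.74, adjusted p = 0.0339 and 0.0221). Its entry through EV normoxia favours the fall in normoxia, and its OC2 values lie near the 0.1 added before taking logs. IFNL1, a type III interferon, was 3.89 and 3.96 RPKM in EV and 2.22 and 1.07 in OC2 normoxia, a fall of 1.29 on the log2 scale (adjusted p = 0.0453), and 1.87 and 2.09 against 1.18 and 1.2 in hypoxia, which was not called.

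Among receptors and signalling genes, 2 of 15 tested rose with OC2 at each oxygen level and none fell, and these were the feedback inhibitors SOCS3 and SOCS1. SOCS3 was 0.00788 and 0.0522 RPKM in EV and 4.59 and 3.57 in OC2 normoxia, with 0.163 and 0.114 against 3.71 and 2.98 in hypoxia (log2 difference 5.02 and 3.85, adjusted p = 0.000102 and 0.000348). SOCS1 was at most 0.194 RPKM in EV libraries and 0.705 to 1.65 in OC2 libraries (log2 difference 1.74 and 3.16, adjusted p = 0.0308 and 0.00183). Both genes passed the filter only through OC2 libraries, SOCS1 only through those of hypoxia, which favours a rise with OC2. In normoxia every SOCS1 value was under 1 RPKM. With hypoxia 1 of 15 rose in EV cells, PIAS1, and none was called in OC2 cells. In the interaction SOCS1 was called higher and SOCS3 lower, at adjusted p of 0.217 and 0.237.

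Of 33 other interferon targets tested in LNCaP, 3 fell with OC2 in normoxia (CXCL11, MX2 and TNFSF10), and in hypoxia MX2 and TNFSF10 fell and GBP1 rose. With hypoxia 6 fell in EV cells (CXCL10, CXCL11, DDX60L, PLSCR1, PSMB9 and TAP2) and 3 in OC2 cells (CXCL10, DDX60L and PSMB9). TNFSF10, the death ligand TRAIL, rose in both arms with hypoxia, from 3.82 and 2.63 to 12.9 and 11.97 RPKM in EV cells and from 1.32 and 1.72 to 4.39 and 5.07 in OC2 cells. In the list of nucleic acid sensing genes, which leaves out IFIH1 and DDX60 (described above), none of 12 tested was called in any LNCaP comparison.

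Markers of other cells were low. Of 7 immune and stromal marker genes in LNCaP, 6 were under 0.5 RPKM in every library, and the immune marker PTPRC was listed at 0 in all 8. Their summed level was 7.67 to 7.81 RPKM in EV normoxia, 11.7 to 11.9 in OC2 normoxia, 15.98 to 17.9 in EV hypoxia and 25.8 to 26.3 in OC2 hypoxia, and nearly all of it was COL1A1. In PC3 the sum was 2.75 to 4.74 RPKM over all libraries, and PTPRC was at most 0.0635.

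In PC3 cells the genes called between the siOC2 and siCtrl groups under the 4-group fit were higher with siOC2. In normoxia 3 of 31 genes rose (9.68%) and none fell, where 3.62% of all genes tested rose and 1.59% fell. In hypoxia 5 rose (16.1%) and none fell, where 3.55% rose and 3.95% fell. No interferon-stimulated gene passed at an adjusted p under 0.05, a limit passed by 0.00819% of all genes in normoxia and 0.0901% in hypoxia. By unadjusted P under 0.05, 4 and 6 of the 31 genes passed, against 9.2% and 12.1% of all genes.

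MX1, a dynamin-like GTPase that traps viral nucleocapsids, had the greatest difference. It was 0.56 and 1.01 RPKM in siCtrl normoxia, 4.97 and 3.07 in siOC2 normoxia, 0.992 and 0.287 in siCtrl hypoxia and 13.3 and 2.73 in siOC2 hypoxia. The folds were 4.68 in normoxia (log2 difference 2.23, SE 0.79, adjusted p = 0.431) and 9.49 in hypoxia (3.25, SE 0.79, adjusted p = 0.155). The value of 13.3 RPKM is from the shallowest library, siOC2 hypoxia replicate 1 (relative depth 0.303). There the overlapping TMPRSS2 was 5.59 RPKM, against at most 1.43 in the other PC3 libraries. A link between these values was not tested, and without this library the MX1 log2 difference in hypoxia was 2.12. OAS1 was 2.16 and 2.52 RPKM in siCtrl and 9.6 and 4.42 in siOC2 normoxia, with 1.54 and 0.886 against 6.92 and 2.7 in hypoxia (2.72-fold and 3.49-fold, adjusted p = 0.478 and 0.238). For both genes every siOC2 library lay above every siCtrl library at its oxygen level, and replicate 1, of siRNA1, was the higher siOC2 library.

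IFI44L rose as well, 2.41-fold in normoxia and 2.57-fold in hypoxia (adjusted p = 0.416 and 0.25). IFITM1 (2.82-fold) and OAS3 (2.53-fold) rose in hypoxia, at adjusted p of 0.238 and 0.198. The calls of MX1, OAS1 and IFI44L in normoxia were lost without siOC2 normoxia replicate 1 or siCtrl normoxia replicate 1. With siOC2 normoxia replicate 1 left out, 3 other genes were called and these were lower. No gene was called without siCtrl normoxia replicate 1, 1 without its replicate 2, and 7 higher without siOC2 normoxia replicate 2. In hypoxia 3 were called without siOC2 hypoxia replicate 1 and 10 without replicate 2. The 2 siOC2 libraries lay above both siCtrl libraries at both oxygen levels for IFI44L, IFI6, IFITM1, ISG15, MX1, OAS1, OAS3 and STAT2 (8 of 31, against 13% of all genes) and below for IFIT2, IFIT3 and OASL (8.88% of all genes).

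The siRNAs differed from each other, which widens the spread within the siOC2 groups. In a fit with a term for each siRNA and for oxygen, which takes the 4 siCtrl libraries as the shared control, siRNA1 had a median log2 difference of 0.59 over siCtrl against -0.07 over all genes. For siRNA2 it was 0.25 against 0.20. The medians were alike with at least 5 RPKM (0.30 and 0.31), and with the replicate block they were 0.38 and 0.23. Each siRNA then rests on 1 library per oxygen level, and the siRNA1 libraries had a relative depth of 1 in normoxia and 0.303 in hypoxia. The part of depth in the results was not tested.

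With siRNA1, 9 of 31 genes rose (29%) and none fell, where 4.67% of all genes tested rose and 8.48% fell, and 8 passed at an adjusted p under 0.05, where 11.9% did. MX1 rose 11.1-fold (log2 difference 3.47, SE 0.48, adjusted p = 0.000841), OAS1 4.69-fold (2.23, SE 0.27, adjusted p = 0.000461) and OAS2 4.34-fold (2.12, SE 0.29, adjusted p = 0.000748). OAS2 was 14.6 and 11.2 RPKM in the siRNA1 libraries in normoxia and hypoxia, against 2.21 to 4.88 in the 4 siCtrl libraries. The other rises were those of IFI44L (3.31-fold), IFI27 (3.14-fold), IFITM1 (2.94-fold), CMPK2 (2.17-fold), OAS3 (2.16-fold) and STAT2 (2.02-fold). STAT2, a subunit of ISGF3, was 43.0 and 29.1 RPKM with siRNA1 and 16.4 to 19.1 with siCtrl. CMPK2, a mitochondrial nucleotide kinase, alone missed the adjusted limit (adjusted p = 0.135), and its call was lost in 9 of 13 other settings.

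With siRNA2, 3 of 31 genes rose (9.68%) and 5 fell (16.1%), where 9.55% of all genes tested rose and 4.11% fell, and 7 passed at an adjusted p under 0.05, where 12.3% did. MX1 (4.02-fold, adjusted p = 0.014) and OAS1 (2.02-fold, adjusted p = 0.0231) rose here too, the call of OAS1 being lost in 4 of 14 other settings, among them a pseudocount of 1 and upper-quartile scaling. SAMD9, an antiviral and antiproliferative factor, rose 2.01-fold with an adjusted p of 0.128, which 9 of 14 other settings did not keep. IFIT2 fell 3.99-fold, from 2.49 to 3.92 RPKM in the siCtrl libraries to 1.01 in normoxia and 0.536 in hypoxia (log2 difference -1.996, SE 0.27, adjusted p = 0.00059). USP18, the protease that removes ISG15 and dampens interferon receptor signalling, fell 2.47-fold, OASL 2.21-fold, IFI35 2.19-fold and IFIT3 2.02-fold (adjusted p = 0.0155 to 0.0239), and the call of IFIT3 was lost in 4 of 13 other settings. Upper-quartile scaling called 1 gene higher and 5 lower.

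Compared directly, siRNA2 was lower than siRNA1 for 25 of 31 genes (median log2 difference -0.54 against 0.26 over all genes). Here 6 genes were called lower (19.4%) and 2 higher (6.45%), where 4.24% of all genes tested were lower and 15.1% higher, and 7 of the 8 passed at an adjusted p under 0.05, where 16.9% did. Upper-quartile scaling called 10 lower and 1 higher. IFI27 was lower 4.76-fold (log2 difference -2.25, SE 0.44, adjusted p = 0.0048), at 1.33 and 0.893 RPKM with siRNA2 and 9.52 and 3.25 with siRNA1. USP18 (3.33-fold), OAS2 (3.21-fold), IFIT2 (2.87-fold), MX1 (2.75-fold) and OAS1 (2.32-fold) were also lower, MX1 with an adjusted p of 0.0783. The calls of MX1 and OAS1 were lost with the replicate block, that of MX1 in 5 of 13 other settings in all. SAMD9 (3.33-fold, adjusted p = 0.0309) and IFIT5 (2.03-fold, adjusted p = 0.027) were higher, the call of IFIT5 being lost in 5 of 14 other settings. SAMD9 was 4.98 and 8.08 RPKM with siRNA2 and 2.61 and 1.28 with siRNA1. The siRNA1 library was the highest of its oxygen level in both cases for 15 of 31 genes and for 10.6% of all genes.

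**Figure D3:**
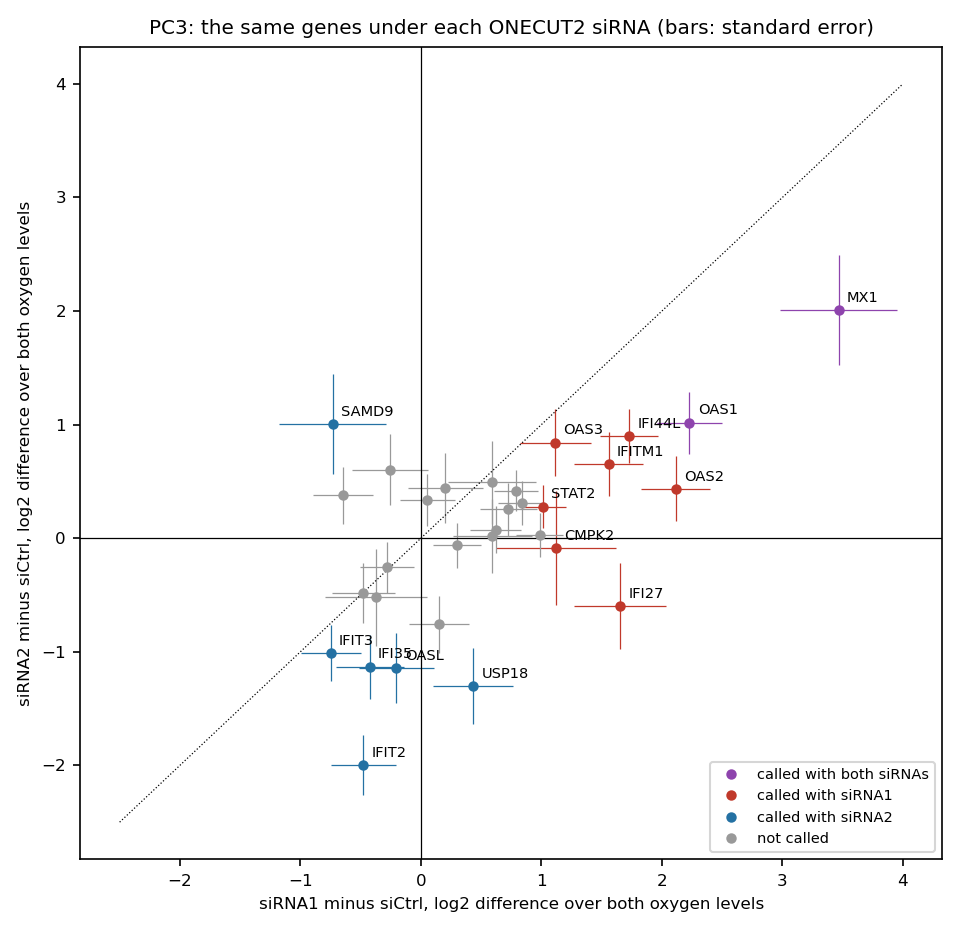
Log2 difference of siRNA1 (x axis) and siRNA2 (y axis) over the shared siCtrl libraries for the 31 interferon-stimulated genes tested in PC3, with standard errors, a dotted line of equal differences and colours for the calls. MX1 (3.47 and 2.01) and OAS1 (2.23 and 1.02) were called with both siRNAs (OAS1 with siRNA2 not under upper-quartile scaling), IFIT2 (-1.996) fell with siRNA2, and OAS2 (2.12) and IFI27 (1.65) rose with siRNA1.

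With oxygen in PC3, 2 genes were called in siCtrl and 1 in siOC2 cells. Between siCtrl libraries 28 of 31 genes were lower in hypoxia (median log2 difference -0.40 against -0.07 over all genes), and between siOC2 libraries 25 were (-0.32 against -0.22). Of all genes tested, 43.8% were higher in hypoxia in siCtrl cells and 29.5% in siOC2 cells. In siCtrl cells ISG20 rose and CMPK2 fell (3.23% each), where 2.23% of all genes tested rose, 1.63% fell and 0.27% passed at an adjusted p under 0.05. ISG20 was 10.99 and 12.4 RPKM in siCtrl normoxia and 33.9 and 34.7 in hypoxia, 2.92-fold higher (log2 difference 1.54, SE 0.42, adjusted p = 0.337), and its call held in the 16 other settings. CMPK2 was 1.86 and 1.23 RPKM against 0.439 and 0.396, 3.13-fold lower (adjusted p = 0.613), a call lost in 6 of 15 other settings. SAMD9 came next, at 1.58 and 2.07 RPKM in normoxia and 6.38 and 4.42 in hypoxia (log2 difference 1.501, SE 0.74), without a call. Leaving out either library of siCtrl normoxia or of siCtrl hypoxia left 1 call, and upper-quartile scaling called 1 gene higher and 0 lower.

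In siOC2 cells HERC6 fell with hypoxia and none rose, where 2.35% of all genes tested fell, 1.11% rose and 0.00819% passed at an adjusted p under 0.05. HERC6 was 2.55 and 1.65 RPKM in siOC2 normoxia and 0.685 and 0.936 in hypoxia, 2.38-fold lower (log2 difference -1.25, SE 0.50, adjusted p = 0.719), a call lost in 6 of 16 other settings. With any of the siCtrl normoxia libraries or siOC2 normoxia replicate 1 left out, 0 genes were called, without siOC2 hypoxia replicate 1 there were 4, and 5 without either siOC2 replicate 2. Without siOC2 normoxia replicate 1 the median of the 31 genes was 0.04 in place of -0.32. The next greatest differences, IFI27 (-1.03, SE 0.90) and IFI35 (-0.94, SE 0.45), were not called. Since the same siRNAs were used at both oxygen levels, a fit with a term for the siRNA was added after the data were seen, and it called 2 genes lower. In the interaction none was called, where 0.246% of all genes tested were called higher, 0.696% lower and 0% at an adjusted p under 0.05, and with the siRNA term 3 were. Without siOC2 hypoxia replicate 2 the interaction called 5 genes, and 1 without siOC2 hypoxia replicate 1 or siOC2 normoxia replicate 2. The greatest interactions were CMPK2 (1.91, SE 0.92), SAMD9 (-1.64, SE 1.05) and ISG20 (-1.26, SE 0.59).

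**Figure D4:**
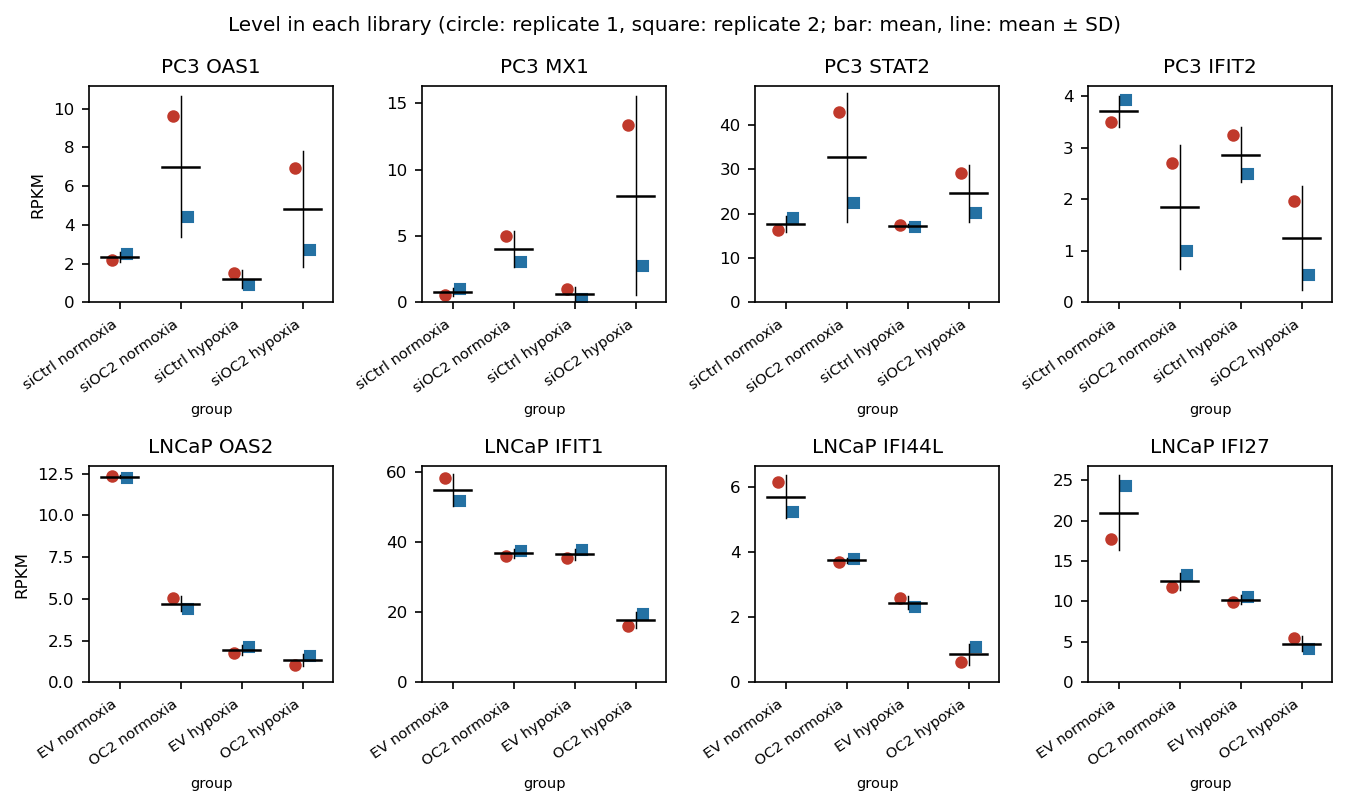
RPKM of 8 genes in each library (circle, replicate 1, and square, replicate 2), with a bar for the group mean and a line for the mean ± SD, on linear axes that start at 0. In PC3 the siOC2 replicates (siRNA1 and siRNA2) lie apart, MX1 in hypoxia at 13.3 and 2.73, and in the LNCaP panels the EV normoxia libraries are the highest and the OC2 hypoxia libraries the lowest, IFIT1 at 58.2 and 51.6 against 16.2 and 19.4.

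None of 21 interferon genes passed the filter in PC3. IFNB1 was listed at 0 in all 8 libraries, and the highest value of the list was 0.975 RPKM, of IFNE. Of 14 genes of nucleic acid sensing tested, DDX58, which encodes the RNA sensor RIG-I, rose with siOC2 in hypoxia (log2 difference 1.05, adjusted p = 0.228) and with siRNA1 (1.17, adjusted p = 0.0025). It was 5.72 and 7.31 RPKM in siCtrl and 13.1 and 10.6 in siOC2 normoxia, and 7.29 and 6.46 against 17.5 and 11.8 in hypoxia. ADAR was higher and TBK1 lower with siRNA2 than with siRNA1.

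Of 33 other interferon targets tested in PC3, GBP1 and MX2 rose with siOC2 in normoxia and GBP1, NLRC5 and SP110 in hypoxia, and none fell. GBP1, an interferon-induced GTPase, was 1.23 and 1.35 RPKM in siCtrl and 9.87 and 4.61 in siOC2 normoxia, and 0.543 and 0.849 against 4.44 and 2.26 in hypoxia (log2 difference 2.30 and 2.07, adjusted p = 0.192 and 0.157). GBP1 and SP110 rose with each siRNA alone (adjusted p = 0.000164 and 0.0304 for siRNA1, 0.00173 and 0.0166 for siRNA2), and MX2 with siRNA1. Between the siRNAs, DDX60L and SAMD9L were higher and GBP1 and MX2 lower with siRNA2. With hypoxia LGALS3BP rose and NLRC5, PSMB9 and SP110 fell in siCtrl cells, and NMI and PSMB9 fell in siOC2 cells, none at an adjusted p under 0.05. NLRC5 was called higher in the interaction. Of 14 receptors and signalling genes, IL10RB and PTPN6 fell with hypoxia in siOC2 cells, and no other was called.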

How the data were processed

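RNA-Seq of 16 libraries was used, 8 of PC3 and 8 of LNCaP, with groups and replicate numbers from the labels. The 12 ChIP-Seq samples were not used here. Libraries (TruSeq Stranded mRNA, HiSeq2500) were aligned by the authors with STAR 2.4.2a to hg19, and the RPKM per gene that they deposited, 1 table per cell line, come from Cufflinks 2.1.1 and a GENCODE annotation. RPKM keep no read counts, and an exact 0 can be a failed estimate.

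Log2(RPKM + 0.1) was fitted per line with limma 3.58.1 in R 4.3.3 (4 groups, mean-variance trend, no block). The siRNA comparisons came from a fit with siRNA and oxygen terms. Tests were 2-sided, and 13 comparisons were made. An exact permutation test of 2 against 2 libraries cannot go below 0.33 and was not used. The scripts were tested on simulated data.

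The 37 genes, the pathway lists and the tests were chosen with earlier results of these data known. Named are every called gene (at most the 12 with the greatest difference in a comparison), the next greatest where fewer than 3 were called, the 5 highest levels per line and the genes under 1 RPKM throughout. Replicate numbers of the siOC2 libraries are those of the siRNAs, and the deviations of same-numbered siOC2 libraries correlated at 0.618 between oxygen levels. Other groups of PC3 share a number only, at -0.186 to 0.0759, and those of LNCaP at -0.0648 to 0.275. Some genes of the pathway lists are not reported here.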

Additional observations from a re-analysis of the deposited data

Results flagged for a closer look

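With hypoxia, 2 interferon-stimulated genes moved in opposite directions in the control arms of the cell lines, with both hypoxia libraries on 1 side of both normoxia libraries in each line. Of all genes tested, 22.1% lay above in this way and 32.9% below in PC3 siCtrl, and 37.1% and 32.4% in LNCaP EV. Opposite moves were not counted over all genes, so these 2 genes are not shown to stand out. SAMD9 differed by 1.501 on the log2 scale between PC3 siCtrl hypoxia and normoxia, and by -0.52 between the LNCaP EV libraries. IRF9, the DNA-binding subunit of ISGF3, differed by 0.63 in PC3 (18.5 and 18.6 RPKM in normoxia, 28.3 and 29.5 in hypoxia) and by -0.21 in LNCaP (25.7 and 28.5 RPKM against 22.0 and 24.9). None of these 4 differences was called. The difference between the lines was not tested, since the tables were normalised separately. Groups of 2 libraries allow no test for a single library that stands apart.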

How the results depend on the processing

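No called gene changed direction in any alternative. Counts of called genes that moved by over 1.5 times were these. With a pseudocount of 1, hypoxia over normoxia called 1 gene in siCtrl, 0 in siOC2, 3 in EV and 8 in OC2 cells, siRNA2 called 2 over siCtrl and 5 over siRNA1, and OC2 over EV 1 at each oxygen level. With at least 5 RPKM, which leaves fewer genes, siOC2 in hypoxia called 2, hypoxia in siCtrl 1 and in siOC2 0, siRNA1 4, siRNA2 3, siRNA2 over siRNA1 4, and OC2 in normoxia 1. Without a filter, hypoxia in siOC2 cells called 2. Upper-quartile scaling called 1 for hypoxia in siCtrl and 1 for OC2 in normoxia. An adjusted p under 0.05 left 0 in the siOC2 comparisons and in hypoxia in siCtrl and siOC2 cells, and 1 for OC2 in normoxia. A fit to only the groups compared called 4 for hypoxia in siCtrl and 0 in siOC2 cells. The cause was not tested. This scaling moved the median of all genes by over 0.1 in 3 PC3 comparisons (0.13 for hypoxia in siOC2, 0.16 for the interaction, -0.15 for siRNA2 over siRNA1), while the median of the interferon-stimulated genes relative to it stayed at -0.10, 0.22 and -0.81.

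With the replicate number as a block, siOC2 in hypoxia called 8, the PC3 interaction 2 and siRNA2 over siRNA1 5. The block by siRNA called 2 for hypoxia in siOC2 cells and 3 in the interaction. Both this block and one with the numbers of siCtrl normoxia swapped were added after the data were seen. The swapped block called 4 and 7 for siOC2 in normoxia and hypoxia, 2 and 1 for hypoxia in siCtrl and siOC2 cells and 0 in the interaction.

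Leaving out 1 library gave 0 to 7 called genes for siOC2 in normoxia, 3 to 10 in hypoxia (3 without siOC2 hypoxia replicate 1, 10 without replicate 2), 1 to 3 for hypoxia in siCtrl, 0 to 5 in siOC2 (5 without siOC2 normoxia replicate 2), 0 to 5 for the PC3 interaction (5 without siOC2 hypoxia replicate 2) and 8 to 10, 6 to 8 and 8 to 12 for the siRNA comparisons in the order above. In LNCaP it gave 1 to 3 for OC2 in normoxia, 5 to 7 in hypoxia, 6 to 9 and 11 to 14 for hypoxia in EV and OC2 cells, and 0 to 1 for the interaction. A group left with 1 library is assumed to vary like the others. The median of the interferon-stimulated genes ranged from -0.57 to 0.04 for hypoxia in siOC2 cells and from -0.37 to 0.42 in the PC3 interaction (0.04 and 0.42 without siOC2 normoxia replicate 1), and kept its sign in the siOC2, siRNA and LNCaP comparisons. The depth of the shallow PC3 libraries limits genes under 1 RPKM.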
